A study of Mus musculus with 131 samples.

Results

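The genes described here are the nuclear genes for the subunits of the mitochondrial respiratory chain and the ATP synthase, read in single cells of mouse blastocysts. They were chosen by name alone, as the rows of the expression table whose symbols begin with Ndufa, Ndufb, Ndufc, Ndufs, Ndufv, Sdha, Sdhb, Sdhc, Sdhd, Uqcr, Cox4 to Cox8 or Atp5, together with Cyc1 and Cycs and without names marked as pseudogenes. The rule took 99 of the 13927 genes in the table and used no measured value. Of these, 38 encode complex I subunits or a paralog of one, 4 complex II, 9 complex III, 17 complex IV and 17 complex V. The other 14 are Cycs (cytochrome c), Atp5if1 (the inhibitor of the ATP synthase) and 12 assembly factors of complexes I and II that share the name stems.

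The respiratory chain passes electrons from NADH (complex I) and succinate (complex II) through ubiquinone, complex III and cytochrome c to oxygen at complex IV. Complexes I, III and IV pump protons, and complex V, the ATP synthase, lets them back to make ATP. Complexes I, III, IV and V are mosaics of nuclear subunits and subunits encoded by mitochondrial DNA (the mt- genes), whereas complex II is wholly nuclear. In mouse blastocysts, the trophectoderm is known for higher oxygen use than the inner cell mass.

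The study injected embryonic stem cells (ESCs) into diploid host embryos on the C57BL/6J strain. The 55 RFP cells carry the Actin-RFP transgene, which the series' design text gives to the injected ESC line, and the 40 GFP cells carry the Actin-GFP transgene of the hosts. Both were picked as single cells from blastocysts at E4.0 and read as amplified full-length cDNA. DNA methylation was read in 1 bisulfite library each of Actin-RFP ESCs at passage 10, ESCs homozygous for the Gjb2 35delG mutation at passage 7 and wild-type mouse embryonic fibroblasts (MEF) at passage 2.

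No label names the embryo a cell came from, so each group of cells counts as 1 sample and no test between RFP and GFP cells was possible. Levels are given as a gene's reads per 1000000 reads of the group's cells pooled (CPM) with exact Poisson 95% intervals, which cover counting error only, since the reads carry no molecular identifiers. The spread over cells is given as the lowest, the median and the highest cell. The RFP cells held 311 M reads and the GFP cells 224 M (M, 1000000), with medians of 5.58 M per RFP cell and 5.61 M per GFP cell. A median of 4527 genes had a read in an RFP cell and 5209 in a GFP cell.

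The groups also differed in lineage markers. Of 11 measured epiblast markers, 10 were at least 2-fold higher in RFP cells, against 25% of all genes. The sum of the 11 markers had a cell median of 1266 CPM (range 1.83 to 4649) in RFP cells and 29.5 CPM (0.120 to 1718) in GFP cells. Each of the 13 measured trophectoderm markers was at least 2-fold lower, against 21.9% of all genes. The sum of the 13 markers had a cell median of 64.0 CPM (0.627 to 3688) in RFP cells and 9477 CPM (24.2 to 16982) in GFP cells. Of 12 primitive endoderm markers 11 were lower, against 21.9% of all genes, with cell medians of 0.874 CPM in RFP cells and 552 CPM in GFP cells. Only 3 of the 12 reached 10 CPM in a group with a read in 50% of its cells, and these 3 were lower. Without each gene's highest cell 6 of the 12 were lower, against 20.3% of all genes. With log2(CPM + 1) averaged over cells 4 of the 12 were lower, against 18.9% of all genes. The mean log2(CPM + 1) of these markers was 6.91 in GFP36, 5.29 in GFP39 and at most 2.55 in the other GFP cells. The median cell of both groups was at 0 for the 3 measured fibroblast and the 2 measured oocyte markers. The origin of a cell and its lineage cannot be told apart in any comparison below. In 5 RFP cells (RFP6, 12, 14, 22 and 48) and 1 GFP cell (GFP27) these markers went against their group. In 4 RFP cells (RFP6, 14, 41 and 44) and in GFP27, over 10% of reads came from mt- genes, up to 62.0% in RFP6. Results are given with all cells, and without these cells where that matters.

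Most nuclear respiratory chain genes were at similar levels in RFP and GFP cells, with a tilt towards lower levels in RFP cells. Of the 99 genes, 7 were at least 2-fold higher in RFP cells and 9 at least 2-fold lower, on the scale of CPM + 1, and the other 83 (83.8%) lay within 2-fold. Among all 13927 genes, 25% were at least 2-fold higher and 21.9% at least 2-fold lower, 46.9% in all. A level and detection rule, of 10 CPM in a group and a read in 50% or more of that group's cells, kept 5166 genes, of which 19.3% were higher and 23.2% lower, 42.5% in all. It kept 92 of the 99, of which 3 were higher and 9 lower, so 4 of the 7 higher genes failed it. At a 1.5-fold mark, 13 of the 99 were higher and 31 lower, against 34.9% and 29.7% of all genes. The log2 ratio was below 0 for 67 genes and above 0 for 32, with a median of -0.30, against 0.08 over all genes and 0.00 over the 5166. Below 0 were 6356 of all 13927 genes and 2579 of the 5166. With log2(CPM + 1) averaged over cells instead of pooled reads, 2 were higher and 38 lower, against 8.53% and 18.9% of all genes, and the medians were -0.79 for the 99 genes and -0.63 for the 5166.

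Together the 99 genes took 0.242% to 5.47% of a cell's reads in RFP cells, with a median of 3.56%, and 2.21% to 5.25% in GFP cells, with a median of 4.30%. The groups overlapped, but 50 of 55 RFP cells lay below the GFP median and 39 of 40 GFP cells above the RFP median. The lowest cells were RFP6, RFP44 and GFP27, all 3 of them rich in mt- reads. Without the cells over 10% mt- reads, the range was 2.66% to 5.47% over 51 RFP cells (median 3.58%) and 3.57% to 5.25% over 39 GFP cells (median 4.31%). With mt- reads left out of each cell's total, the medians were 3.67% in RFP cells and 4.46% in GFP cells. Fewer transcripts per cell and a different make-up of the rest of the RNA cannot be told apart in such shares.

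**Figure D1:**
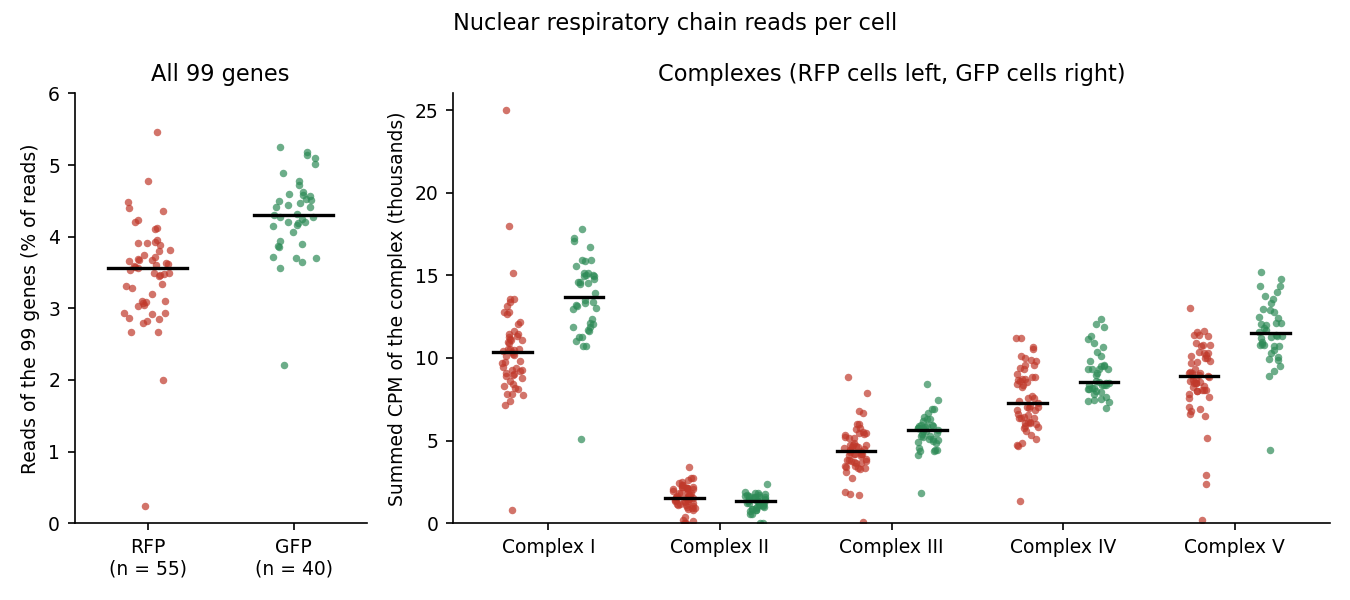
Reads of the 99 nuclear respiratory chain genes in each of 55 RFP cells (red, left) and 40 GFP cells (green, right), as percent of the cell's reads (left panel), and summed CPM by complex (right panel). Points are cells and lines are medians. The RFP median lies below the GFP median for the 99 genes (3.56% against 4.30%) and for complexes I, III, IV and V, and above it for complex II.

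Complex I, the entry point for NADH, was lower as a whole in RFP cells. Its 38 genes summed to 778 CPM in the lowest RFP cell, 10353 in the median and 24991 in the highest, and to 5095, 13701 and 17813 in GFP cells. Of the RFP cells, 52 of 55 were below the GFP median, while RFP12 and RFP19 stood above every GFP cell. The log2 ratio was below 0 for 30 of the 38 genes, against 6356 of all 13927 genes. The median of the 38 was -0.37. The 7 core subunits, which carry the flavin and iron-sulfur centres, had a median of -0.17 and summed to 1823 CPM in RFP cells and 1829 CPM in GFP cells. The 31 accessory subunits had a median of -0.42 and summed to 8754 CPM in RFP cells and 11784 CPM in GFP cells. The pooled sums thus differed in the accessory subunits, while the core sums were nearly equal, with RFP12 at 9558 CPM for the core subunits against a median RFP cell of 1750 CPM.

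The 3 complex I genes past 2-fold were all accessory subunits and all lower. Ndufa8, a subunit on the intermembrane space side of the membrane arm, was at 0 CPM in the lowest RFP cell, 143 in the median and 447 in the highest, and at 1.94, 511 and 1539 CPM in GFP cells. Pooled, it was at 173 CPM (95% interval 172 to 175) in RFP cells and 583 CPM (580 to 586) in GFP cells, or a log2 ratio of -1.75. All 55 RFP cells lay below the GFP median, though the ranges overlapped. Its promoter is shown because its sequence holds a match to the motif of NRF1, a transcription factor named for its role at respiratory chain genes. The motif is GCGCA and GCGC with any 1 base between them, on either strand. The match is in capitals, in RefSeq's GRCm38.p6 sequence from 250 bases before to 50 bases after the gene start, chr2:36049289-36049588, minus strand, 5′ to 3′.

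Ndufa8: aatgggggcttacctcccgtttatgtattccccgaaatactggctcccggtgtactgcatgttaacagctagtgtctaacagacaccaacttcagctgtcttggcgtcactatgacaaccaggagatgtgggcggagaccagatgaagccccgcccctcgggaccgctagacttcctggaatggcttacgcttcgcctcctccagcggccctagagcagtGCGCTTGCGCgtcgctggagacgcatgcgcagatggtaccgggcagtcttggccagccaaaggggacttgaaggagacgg

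Ndufa5, a subunit of the matrix arm, was at 141 CPM in RFP cells and 423 CPM in GFP cells (log2 ratio -1.58), with cell medians of 137 CPM in RFP cells and 397 CPM in GFP cells, and 54 of 55 RFP cells lay below the GFP median. Ndufs5, like Ndufa8 on the intermembrane space side, was at 141 CPM in RFP cells and 327 CPM in GFP cells (log2 ratio -1.21), with 52 RFP cells below the GFP median. The next lowest were Ndufc1 (-0.82), Ndufa3 (-0.79) and the core subunit Ndufs7 (-0.77). Ndufv1, which binds NADH and the flavin, had a log2 ratio of 0.70, but RFP12 held 30.1% of its RFP reads, and the ratio was 0.27 without each group's highest cell. By CPM in RFP cells, the top of the complex was Ndufa7 (822 CPM in RFP cells, 712 CPM in GFP cells) and the bottom Ndufb11b (23.3 CPM in RFP cells, 15.5 CPM in GFP cells), a paralog named after Ndufb11. Ndufb11b had reads in 11 RFP cells and 17 GFP cells, and its log2 ratio of 0.55 was -0.25 without the cells over 10% mt- reads. CPM also grows with transcript length, so these levels do not rank genes by molecules.

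Complex II, succinate dehydrogenase, was the one complex with all of its genes above 0 in pooled reads. With log2(CPM + 1) averaged over cells, Sdha (-0.65) and Sdhb (-0.28) were below 0 and Sdhc (1.05) was past 2-fold, and with the authors' factor per cell Sdha was at -0.05. The flavoprotein Sdha (log2 ratio 0.10) and the iron-sulfur subunit Sdhb (0.10) were close between the groups. The membrane anchors Sdhc and Sdhd were higher in RFP cells without reaching 2-fold. Sdhc was at 214 CPM in RFP cells and 120 CPM in GFP cells (0.83), and Sdhd at 474 CPM in RFP cells and 253 CPM in GFP cells (0.91). The 4 genes summed to 2.20 CPM in the lowest RFP cell, 1519 in the median and 3429 in the highest, and to 0.373, 1326 and 2378 CPM in GFP cells, with 36 of 55 RFP cells above the GFP median.

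Sdhaf4 had the lowest ratio of all 99 genes. It encodes an assembly factor that binds the flavin-loaded Sdha before it joins Sdhb. It was at 14.2 CPM (13.7 to 14.6) in RFP cells and 91.6 CPM (90.4 to 92.9) in GFP cells, or a log2 ratio of -2.61. No read was found in 30 of 55 RFP cells and 4 of 40 GFP cells, and the cell medians were 0 CPM in RFP cells and 70.2 CPM in GFP cells. One cell held 22.9% of its RFP reads, and the ratio was -2.83 without each group's highest cell. The gene, at chr1:23995939-24005640 in GRCm38.p6, overlaps the locus Gm53062 in RefSeq, with the strand setting of the counting not stated in the sources used here. In RefSeq 30 of the 99 genes overlap another gene, among them Sdhc, Uqcr10, Atp5f1a, Cox4i2 and Ndufa4l2, and their reads may include the neighbour's. The other complex II factors, Sdhaf1, Sdhaf2 and Sdhaf3, had log2 ratios of 0.14, -0.67 and -0.46.

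Complex III had 1 gene past 2-fold, the Rieske iron-sulfur protein Uqcrfs1, which takes electrons from ubiquinol. It was at 0 CPM in the lowest RFP cell, 67.8 in the median and 395 in the highest, and at 0, 297 and 847 CPM in GFP cells. Pooled, this was 109 CPM (108 to 110) in RFP cells and 312 CPM (309 to 314) in GFP cells, or a log2 ratio of -1.504. A read was missing in 14 RFP cells and 2 GFP cells. The heme partner in the same electron path, cytochrome c1 (Cyc1), was at 287 CPM in RFP cells and 297 CPM in GFP cells, and the core protein Uqcrc1, at the top of the complex by CPM, at 1257 CPM in RFP cells and 1219 CPM in GFP cells. Of the small subunits, Uqcr10 (-0.90) and Uqcrb (-0.73) were lower and Uqcr11 (0.40) higher in RFP cells, all within 2-fold.

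Cycs (chr6:50562563-50566569 in GRCm38.p6) encodes cytochrome c, the soluble protein that carries electrons from complex III to complex IV and, once released from mitochondria, starts caspase activation. It was at 0 CPM in the lowest RFP cell, 186 in the median and 681 in the highest, and at 13.6, 805 and 1384 CPM in GFP cells. All 55 RFP cells lay below the GFP median, and 8 below the lowest GFP cell, GFP27. The lowest of the other 39 GFP cells was at 371 CPM. Pooled, Cycs was at 224 CPM (223 to 226) in RFP cells and 820 CPM (816 to 824) in GFP cells, or a log2 ratio of -1.87, and between -2.69 and -1.83 under the alternatives run. Cytochrome c has processed copies in the mouse genome, with the handling of reads shared between copies not stated in the sources used here.

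Complex IV, cytochrome c oxidase, summed to 1313 CPM in the lowest RFP cell, 7290 in the median and 11235 in the highest, and to 6997, 8568 and 12337 CPM in GFP cells. Of its 11 widely used nuclear subunits, 9 had a log2 ratio below 0, against 6356 of all 13927 genes. The median of the 11 was -0.39. Cox5b, a subunit on the matrix side, was the only one past 2-fold, at 331 CPM in RFP cells and 684 CPM in GFP cells (log2 ratio -1.05). Its lowest, median and highest RFP cells were at 0, 267 and 1520 CPM, and the GFP cells at 297, 702 and 1374 CPM, so that 32 of 55 RFP cells lay below every GFP cell. With the authors' factor per cell, under which RFP6 carries a total of 181 M against a median of 4.35 M, the ratio of Cox5b was 0.018, and the median of all 17 complex IV genes was 0.016 instead of -0.18. The pseudogene row Cox5b-ps, which the naming rule leaves out, was at 20.8 CPM in RFP cells and 17.3 CPM in GFP cells. Cox7c, at the top of the complex by CPM, went the other way, at 1454 CPM in RFP cells and 814 CPM in GFP cells (0.84), with 51 of 55 RFP cells above the GFP median.

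The summed levels of complex V differed by part of the machine. Of its 17 genes 14 had a ratio below 0, against 6356 of all 13927 genes. The genes of the complex above 0 were Atp5mc2 (0.05) and the subunits that form the catalytic ring of the F1 head. The alpha subunit Atp5f1a was at 1384 CPM in RFP cells and 866 CPM in GFP cells (log2 ratio 0.68) and the beta subunit Atp5f1b at 1407 CPM in RFP cells and 1198 CPM in GFP cells (0.23). Atp5f1a overlaps Haus1 in RefSeq. All 4 peripheral stalk genes (-0.88 to -0.47) and all 5 genes of the membrane part (-1.51 to -0.18) had ratios below 0. Summed, the F1 genes stood at 3834 CPM in RFP cells and 3387 CPM in GFP cells, the c ring genes at 1411 CPM in RFP cells and 2140.2 CPM in GFP cells, the stalk genes at 2422 CPM in RFP cells and 3815 CPM in GFP cells, and the membrane genes at 1352 CPM in RFP cells and 2286 CPM in GFP cells. The higher F1 sum came from Atp5f1a and Atp5f1b, since the other 3 of the 5 F1 genes had ratios below 0 and the F1 median was -0.25. Past 2-fold were the membrane subunits Atp5mj, at 205 CPM in RFP cells and 586 CPM in GFP cells (-1.51), and Atp5me, subunit e at the dimer interface, at 234 CPM in RFP cells and 487 CPM in GFP cells (-1.06). Every RFP cell lay below the GFP median of Atp5mj, and 51 of 55 below that of Atp5me. The ratio of Atp5me was 0.81 with the authors' factor per cell.

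Atp5if1, which binds the F1 head and blocks the reverse, ATP-burning reaction, was the clearest gene in the other direction. It was at 19.3 CPM in the lowest RFP cell, 1125 in the median and 4813 in the highest, and at 192, 443 and 3672 CPM in GFP cells. Of the RFP cells, 54 of 55 lay above the GFP median, and the low one was RFP6. Pooled, this was 1177 CPM (1173 to 1181) in RFP cells and 490 CPM (488 to 493) in GFP cells, or a log2 ratio of 1.26, and between 1.17 and 1.41 under the alternatives run. A motif match is found in this promoter too, at chr4:132535365-132535664, minus strand, with the NRF1 match in capitals.

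Atp5if1: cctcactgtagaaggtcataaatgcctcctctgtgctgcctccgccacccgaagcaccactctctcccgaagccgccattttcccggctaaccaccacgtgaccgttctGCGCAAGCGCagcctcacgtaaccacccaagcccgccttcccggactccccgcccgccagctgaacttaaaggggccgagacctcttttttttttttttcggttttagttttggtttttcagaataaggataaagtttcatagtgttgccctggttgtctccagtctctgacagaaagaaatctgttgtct

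**Figure D2:**
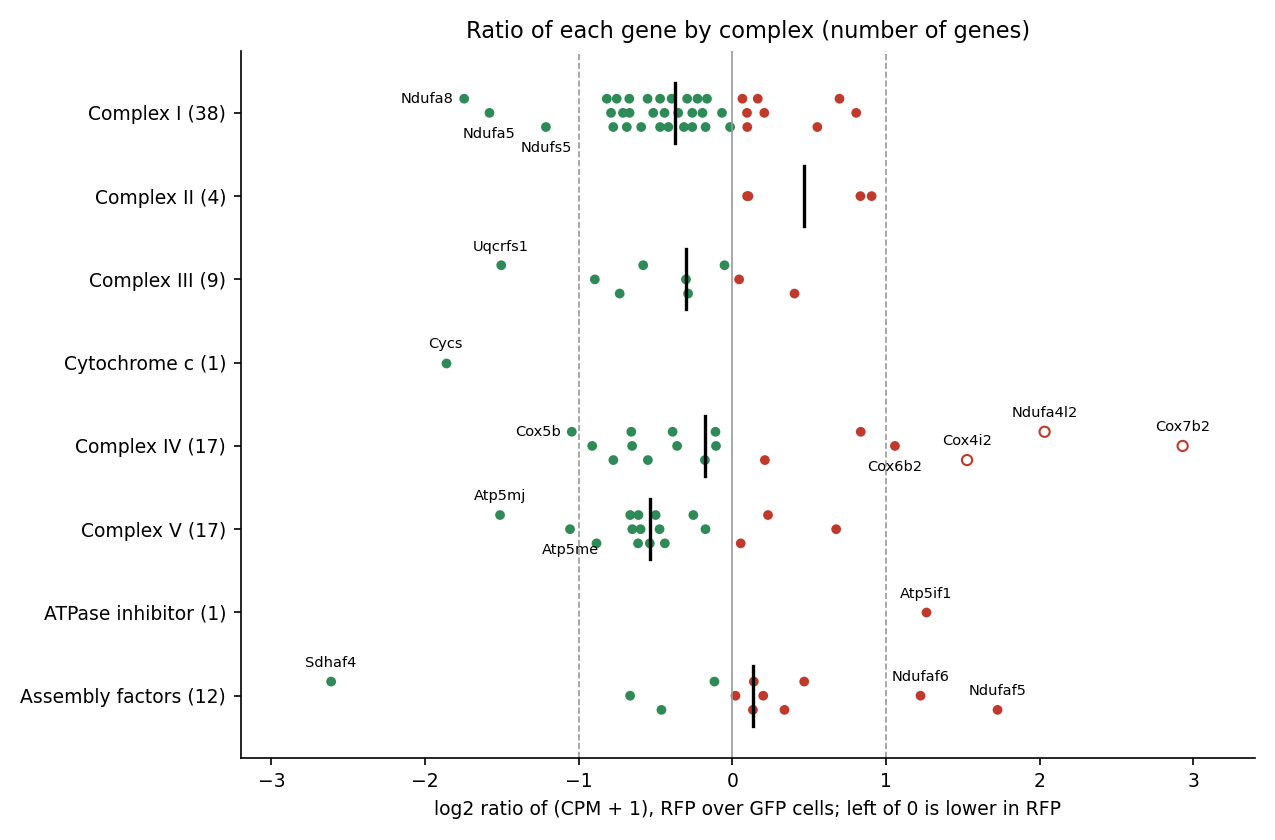
The log2 ratio of CPM + 1, RFP over GFP cells, for each of the 99 genes, with complexes down the page. Red points are above 0 and green points below 0, open circles mark genes with no read in GFP cells, black lines are medians, and dashed lines mark 2-fold. Complexes I, III, IV and V have medians below 0 and complex II above, and Cycs, Sdhaf4 and Atp5if1 stand outside the dashed lines.

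**Figure D3:**
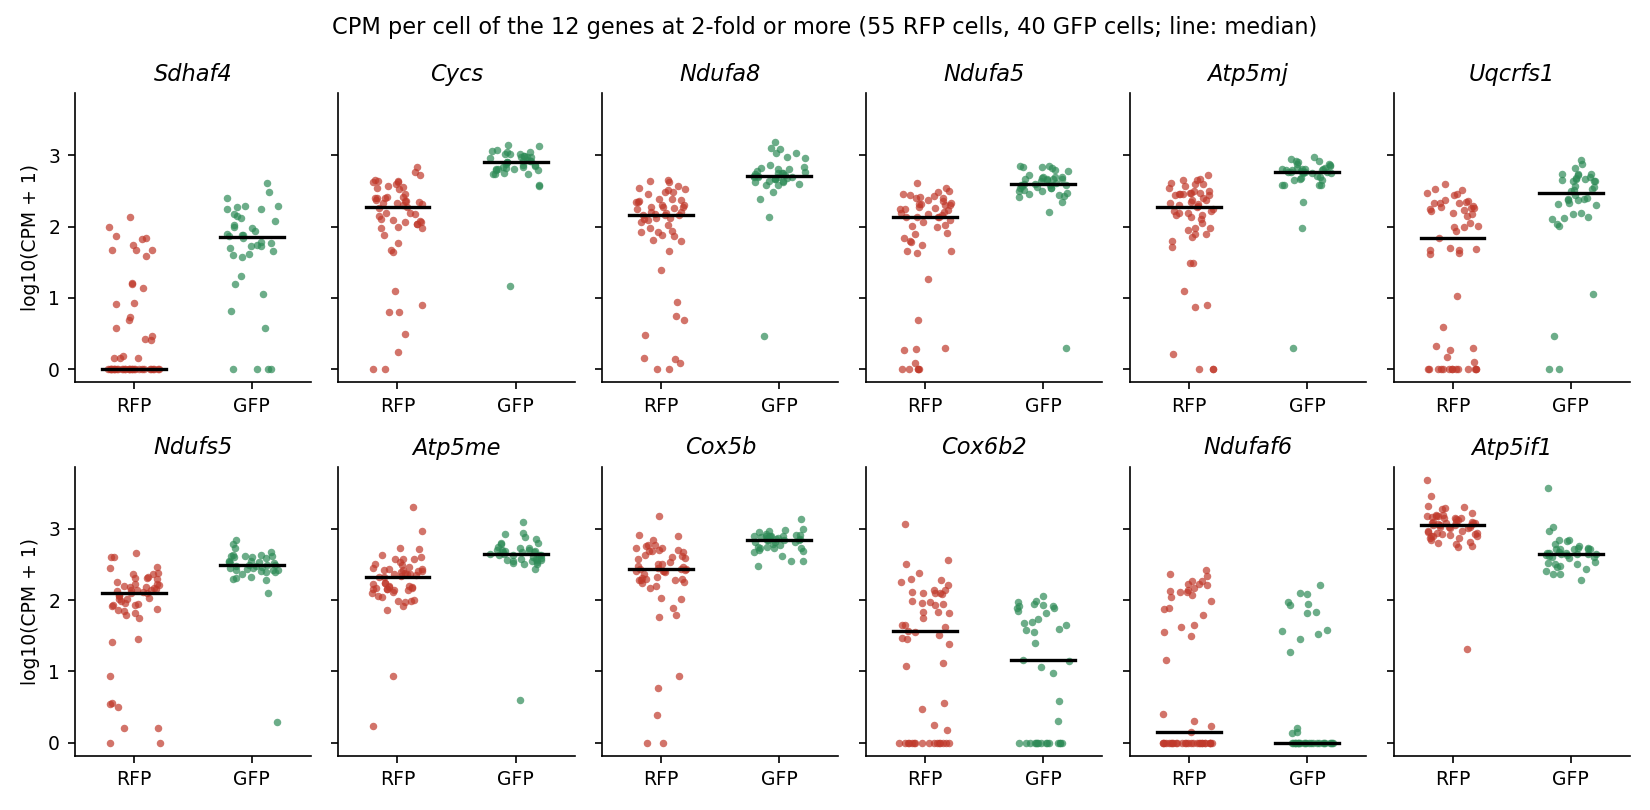
Level in each cell, as log10(CPM + 1), of the 12 genes that passed the level and detection rule and differed by at least 2-fold, ordered by ratio, with 55 RFP cells (red, left) and 40 GFP cells (green, right) and medians as lines. All RFP cells lie below the GFP median for Cycs, Ndufa8 and Atp5mj, whereas Sdhaf4, Cox6b2 and Ndufaf6 have many cells at 0.

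Several complex IV subunits exist as paired isoforms, and these were compared as shares of the family's reads, with exact binomial 95% intervals that cover counting error only. Cox6b2, the testis isoform of subunit 6b, held 11.6% of the Cox6b reads in RFP cells (11.4 to 11.7%) and 3.79% in GFP cells (3.70 to 3.87%). Its level was 71.9 CPM in RFP cells and 33.99 CPM in GFP cells (log2 ratio 1.06), while Cox6b1, the common isoform, was at 549 CPM in RFP cells and 863 CPM in GFP cells (-0.65). A Cox6b2 read was found in 39 of 55 RFP cells and 25 of 40 GFP cells. The cell medians were 36.3 CPM in RFP cells and 13.2 CPM in GFP cells, and 15 RFP cells lay above the highest GFP cell, at 112 CPM. The ratio was 0.83 without the cells over 10% mt- reads and 0.95 without each group's highest cell, so Cox6b2 did not hold the 2-fold mark there. Over cells with at least 100 reads of the pair, the median share was 8.32% in RFP cells and 1.67% in GFP cells.

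No family switched its main isoform in pooled reads, and Cox6b1 held 88.4% of the Cox6b reads in RFP cells and 96.2% in GFP cells. Cox7a2 held 72.7% of the Cox7a reads in both groups, the supercomplex factor Cox7a2l 25.6% in RFP cells and 24.4% in GFP cells, and the muscle isoform Cox7a1 1.67% in RFP cells and 2.87% in GFP cells. The 3 genes for the identical subunit c of the ATP synthase also kept their order, with Atp5mc1 at 50.1%, Atp5mc3 at 43.97% and Atp5mc2 at 5.97% in RFP cells, and at 52.3%, 43.9% and 3.79% in GFP cells. Cox6a1 and Cox8a are the only isoforms of their families among the 99 genes.

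In 3 genes no read was found in any GFP cell, and RFP reads came from few cells. Cox7b2, another testis isoform, was at 6.62 CPM in RFP cells, from 8 of 55 cells, with 59.5% of the reads in RFP1. Ndufa4l2, an isoform known to be induced by low oxygen, was at 3.09 CPM from 5 RFP cells, and Cox4i2, the isoform of lung and low oxygen, at 1.88 CPM from RFP6 alone. Against the floor of 3 reads over the pooled GFP cells, Cox7b2 was at least 494-fold and Cox4i2 at least 140-fold higher, bounds that rest on those few cells. Were the 40 GFP cells independent, which the labels do not say, finding no read in them would allow a share of cells with a read of up to 7.5%. With the 3 genes at these bounds, the median of the 99 stayed at -0.30.

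The assembly factors that share the name stems had a median log2 ratio of 0.14, which was -0.42 with log2(CPM + 1) averaged over cells and -0.14 with the authors' factor per cell. Ndufaf6, a complex I factor, was at 56.3 CPM in RFP cells and 23.5 CPM in GFP cells (log2 ratio 1.22), with a read in 28 of 55 RFP cells and 16 of 40 GFP cells, and a ratio of 0.98 to 1.31 under the alternatives run. Ndufaf5, which modifies a core subunit of complex I, had a higher ratio (1.73, at 30.6 CPM in RFP cells and 8.55 CPM in GFP cells), but a read in only 17 RFP cells and 9 GFP cells, and so failed the detection rule. The remaining complex I factors, Ndufaf1, 2, 3, 4, 7 and 8, lay between -0.12 and 0.47.

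A wider list of 41 assembly factors, 40 of them measured, was lower in RFP cells as a group. At least 2-fold lower were 17, and 1 was higher, with a median of -0.66, against 21.9% lower and a median of 0.08 over all genes. Each RFP cell's sum of these factors, from 57.9 to 3695 CPM with a median of 2193 CPM, lay below the GFP median of 3709 CPM, in a GFP range of 2681 to 5797 CPM. Cox19, a factor of complex IV assembly like Coa4 and Coa6, was at 7.86 CPM in RFP cells and 63.9 CPM in GFP cells (-2.87), Coa4 at 10.3 CPM in RFP cells and 67.6 CPM in GFP cells (-2.60), and Coa6 at 12.996 CPM in RFP cells and 56.6 CPM in GFP cells (-2.04). The insertase Cox18 was at 29.9 CPM in RFP cells and 152 CPM in GFP cells (-2.31), and the heme farnesyltransferase Cox10 at 27.8 CPM in RFP cells and 84.2 CPM in GFP cells (-1.57). Tmem70, which helps build the c ring of the ATP synthase, was at 44.9 CPM in RFP cells and 148 CPM in GFP cells (-1.70). Also lower were Cmc1, Acad9, Cox14, Cox20, Cmc2, Pet100, Higd1a, Uqcc1 and Atpaf2, between -1.78 and -1.003, and Cox15 (-2.06) and Taco1 (-1.90), which failed the detection rule. Ecsit, a complex I factor that also acts in innate signalling, was the one that was higher, at 72.0 CPM in RFP cells and 14.1 CPM in GFP cells (2.27). Without the cells whose markers go against their group, 15 were lower and 1 higher, against 21.9% and 24.9% of all genes.

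Of 30 measured regulators of respiratory chain and mitochondrial DNA expression, 8 were at least 2-fold higher and 5 lower, with a median of 0.38, against 25% higher and 21.9% lower among all genes, so both shares lay near the background. Among the 15 that passed the level and detection rule, 4 were higher and 1 lower, against 19.3% and 23.2% of the 5166 genes. With log2(CPM + 1) averaged over cells, 4 of the 30 were higher and 3 lower, against 8.53% and 18.9% of all genes. Nrf1, the factor whose motif is shown above, was at 62.7 CPM in RFP cells and 26.9 CPM in GFP cells (log2 ratio 1.19), Tfam, which packs mitochondrial DNA, at 77.4 CPM in RFP cells and 34.1 CPM in GFP cells (1.16), and Tefm, the mitochondrial transcription elongation factor, at 95.2 CPM in RFP cells and 46.5 CPM in GFP cells (1.02). Pdk1, which switches off pyruvate dehydrogenase, was at 160 CPM in RFP cells and 14.4 CPM in GFP cells (3.39), and Epas1, the low-oxygen factor HIF-2 alpha, at 22.9 CPM in RFP cells and 195 CPM in GFP cells (-3.03). Of 19 genes of the tricarboxylic acid cycle and pyruvate entry, 1 was higher and 5 lower, with a median of -0.39, and the share that was lower lay near the 21.9% of all genes. With log2(CPM + 1) averaged over cells, 11 of the 19 were lower and 0 higher, against 18.9% and 8.53% of all genes. In that setting the median was -1.17 for the 19 genes and -0.63 for the 5166 genes. Among the 5 were Suclg2 (-1.79), Dlst (-1.21), Idh3b (-1.13) and Idh3a (-1.10), all subunits of enzymes of the cycle itself, and the higher one was Pcx (2.09), which failed the detection rule.

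The 13 mt- genes together were at 31720 CPM in RFP cells and 33990 CPM in GFP cells. Of these genes, 7 reached 100 CPM: mt-Co1 was at 10001 CPM in RFP cells and 8842 CPM in GFP cells (log2 ratio 0.18), mt-Cytb at 11050 CPM in RFP cells and 10641 CPM in GFP cells (0.05), and mt-Nd1 at 4442 CPM in RFP cells and 5959 CPM in GFP cells (-0.42). The other complex I genes were lower in RFP cells within 2-fold, with mt-Nd2 at -0.38, mt-Nd5 at -0.39, mt-Nd4 at -0.50 and mt-Nd6 at -0.76. Without the cells over 10% mt- reads, these ratios were -0.98 for mt-Nd2, -0.69 for mt-Nd5, -0.83 for mt-Nd4, -0.91 for mt-Nd6 and -0.62 for mt-Nd1. With mean CPM over cells, which gives RFP6 the same weight as deeper cells, mt-Nd1 (0.12), mt-Nd2 (0.72), mt-Nd4 (0.22) and mt-Nd5 (0.45) were above 0 and mt-Nd6 (-0.18) was not, and with the authors' factor per cell these 5 lay between 2.91 and 4.84. The remaining 6 (mt-Co2, mt-Co3, mt-Atp6, mt-Atp8, mt-Nd3 and mt-Nd4l) were at no more than 13.1 CPM in either group, far under the other mt- genes, and they include both mitochondrial genes of complex V.

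Set against their nuclear partners, mt- reads in RFP cells were lower than in GFP cells for complex I and higher for complexes III and IV. The mt- reads of complex IV came almost wholly from mt-Co1, since mt-Co2 and mt-Co3 were among the low mt- genes named above. Both mt- genes of complex V were also among them, and no ratio is given for that complex. The ratios compare RFP with GFP cells within a complex and do not give the proportions of its subunits. Without the cells over 10% mt- reads, complex I had 0.790 mt- reads per nuclear read in RFP cells and 1.02 in GFP cells, complex III 2.20 in RFP cells and 1.86 in GFP cells, and complex IV 1.20 in RFP cells and 0.937 in GFP cells. Among the same cells the log2 ratio of mt-Cytb was -0.10 and that of mt-Co1 0.13. With all cells, complex I had 1.01 in RFP cells and 1.06 in GFP cells, complex III 2.48 in RFP cells and 1.92 in GFP cells, and complex IV 1.29 in RFP cells and 0.973 in GFP cells.

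Within RFP cells, the share of nuclear respiratory chain reads went with the share of mt- reads. Over the 51 RFP cells at or under 10% mt- reads, Pearson's r was 0.60 and Spearman's rho 0.64, and 0.66 and 0.69 with mt- reads left out of the total. Over the 39 such GFP cells they were 0.08 and 0.08. With all cells, the values were -0.55 and 0.44 over 55 RFP cells and -0.52 and 0.00 over 40 GFP cells, and RFP6, RFP44 and GFP27, all over 10% mt- reads, were the lowest cells in nuclear ones, whereas RFP14 (3.20%) and RFP41 (4.36%), also over 10%, were not. These are descriptions over cells that share an unknown number of embryos, and RFP cells with more of these reads also had fewer genes with a read (r = -0.55, rho = -0.55 over the 51 cells). The part of genes detected in the relation was not tested.

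**Figure D4:**
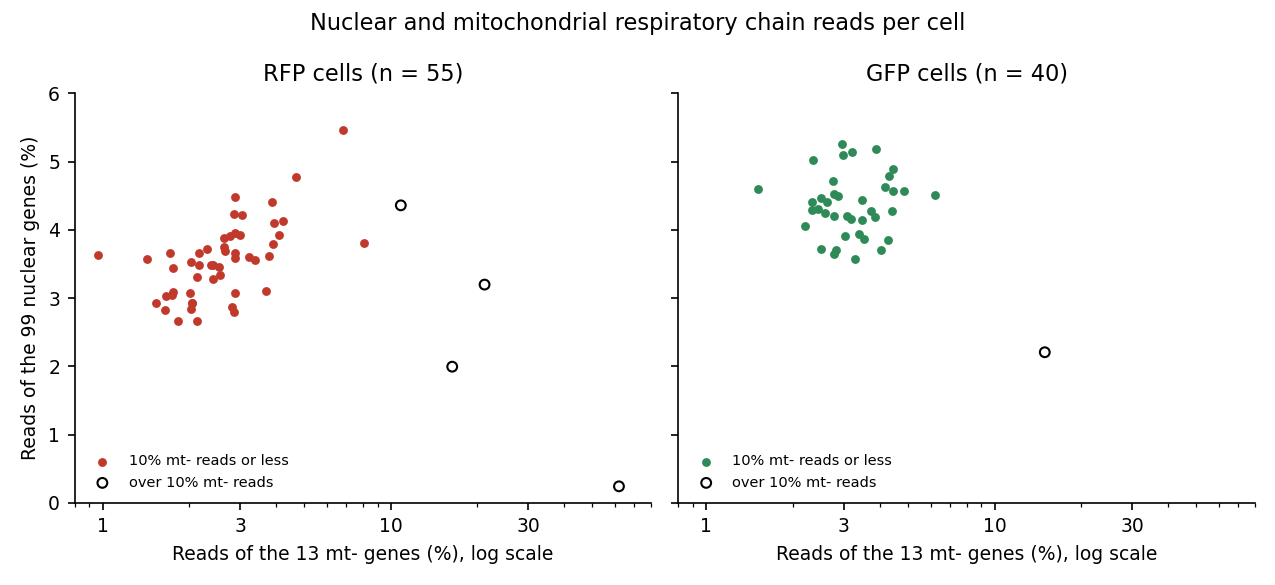
Share of a cell's reads from the 99 nuclear respiratory chain genes (linear axis) against the share from the 13 mt- genes (log axis), in 55 RFP cells (left) and 40 GFP cells (right). Open circles are the 4 RFP cells and 1 GFP cell with over 10% mt- reads. Among the filled points the shares climb together in RFP cells (rho 0.64, n = 51) and not in GFP cells (rho 0.08, n = 39).

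The complexes moved together to different degrees. Without the same cells, the summed levels of complexes I and IV had a Pearson's r of 0.47 and a rho of 0.66 over 51 RFP cells and 0.50 and 0.49 over 39 GFP cells. For complexes I and V the r was 0.07 and the rho 0.26 over RFP cells, and both were 0.69 over GFP cells. Complex II had a rho between -0.11 and 0.17 with complexes I, III, IV and V over RFP cells, and between -0.06 and 0.08 over GFP cells. Over RFP cells, Atp5if1 had a rho of 0.58 with complex I, 0.64 with complex IV and 0.36 with its own complex V. Pearson's r for the same pairs was 0.30, 0.23 and 0.32, so their order depended on the measure. Over GFP cells the rho was 0.19, 0.29 and 0.18 and the r 0.18, 0.51 and 0.16.

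Promoter methylation was read from 1000 bases before to 500 after the gene start in 3 cultured cell libraries, 1 of each kind, for the 83 genes with a start in RefSeq's promoter table. These are cultured cells and not the blastocyst cells above. The median was 4.22% in Actin-RFP ESCs, 5.36% in Gjb2 35delG ESCs and 13.2% in MEF, against 5.94%, 10.6% and 17.8% over 10967 genes of the expression table. Below 20% were 82 of 83 in Actin-RFP ESCs, 79 in Gjb2 35delG ESCs and 61 in MEF, against 84.7%, 70.4% and 54.7% of all genes. The promoters rested on medians of 1097, 771 and 819 methylation calls in these libraries.

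In Gjb2 35delG ESCs and MEF, the highest levels were in an isoform and a paralog gene, Cox7b2 and Ndufb11b. In Actin-RFP ESCs Cox7b2 was the highest, followed by Cox5b (11.8%) and Ndufb7 (10.74%). Cox7b2, which was read in few RFP cells and in no GFP cell, was methylated at 56.6% in Actin-RFP ESCs (385 calls), 79.4% in Gjb2 35delG ESCs (326 calls) and 91.1% in MEF (404 calls). Ndufb11b was at 10.7%, 53.8% and 93.3%, a difference between the 2 ESC lines that was the largest among the 83 genes. Cox6b2 was at 8.07%, 11.2% and 28.4%. The others at 20% or more in Gjb2 35delG ESCs were Ndufc2 (29.5%) and Ndufa8 (20.8%). In a window of 500 bases on either side of the start both were under 20% (16.5% for Ndufc2, 14.96% for Ndufa8), and with at least 20 calls Ndufa8 was at 18.8%. Cycs (5.48%, 8.62% and 17.7%) and Atp5if1 (4.58%, 4.94% and 10.3%), which differed in opposite directions between RFP and GFP cells, were both below 20% in all 3 libraries. In MEF, Cycs lay near the median of all genes (17.8%). The promoters of the 3 isoform and paralog genes are shown with each CpG, the unit of these calls, in capitals, as GRCm38.p6 sequence 5′ to 3′: Cox7b2 at chr5:71548156-71548455 (minus strand), Ndufb11b at chr15:81980290-81980589 (plus strand) and Cox6b2 at chr7:4753045-4753344 (minus strand).

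Cox7b2: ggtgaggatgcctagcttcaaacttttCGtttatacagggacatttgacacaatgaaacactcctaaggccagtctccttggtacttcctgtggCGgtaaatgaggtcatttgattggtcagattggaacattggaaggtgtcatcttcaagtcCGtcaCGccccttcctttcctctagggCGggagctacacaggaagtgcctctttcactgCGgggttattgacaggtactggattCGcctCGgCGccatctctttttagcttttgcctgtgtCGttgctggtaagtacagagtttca

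Ndufb11b: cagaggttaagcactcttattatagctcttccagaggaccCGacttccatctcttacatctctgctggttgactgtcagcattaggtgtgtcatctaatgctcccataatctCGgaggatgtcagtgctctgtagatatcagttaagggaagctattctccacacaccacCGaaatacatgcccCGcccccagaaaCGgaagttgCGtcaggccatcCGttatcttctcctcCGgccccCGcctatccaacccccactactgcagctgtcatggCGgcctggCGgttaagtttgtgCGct

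Cox6b2: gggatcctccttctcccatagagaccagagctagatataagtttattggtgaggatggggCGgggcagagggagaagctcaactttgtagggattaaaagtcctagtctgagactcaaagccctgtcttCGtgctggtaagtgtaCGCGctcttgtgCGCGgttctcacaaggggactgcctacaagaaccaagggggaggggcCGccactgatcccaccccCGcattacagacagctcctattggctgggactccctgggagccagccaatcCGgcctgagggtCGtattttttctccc

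These windows held 10 CpGs in Cox7b2, 12 in Ndufb11b and 10 in Cox6b2, against 19 in Ndufa8 and 16 in Atp5if1.

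**Figure D5:**
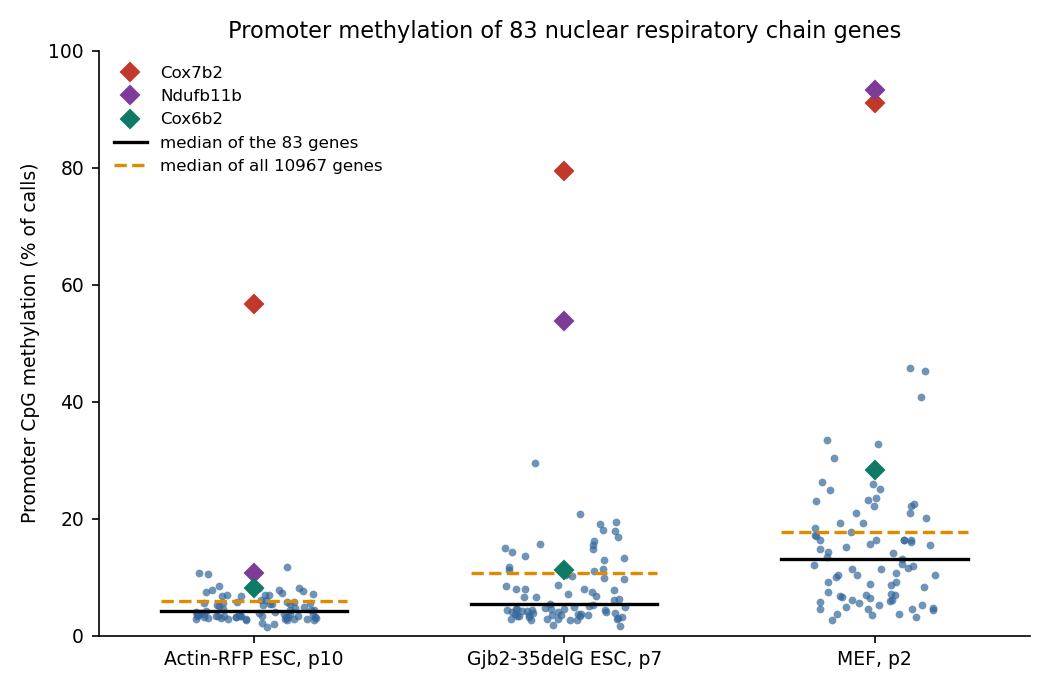
CpG methylation, in percent of calls, of the promoters of 83 nuclear respiratory chain genes in the libraries of Actin-RFP ESCs, Gjb2 35delG ESCs and MEF. Points are genes, diamonds mark Cox7b2, Ndufb11b and Cox6b2, black lines are medians of the 83 genes, and dashed lines medians of 10967 genes. The black lines lie below the dashed ones in each library, at 4.22%, 5.36% and 13.2%, and Cox7b2 lies above 50% in all 3.

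The promoters were also searched, on both strands, for the letters of motifs of 3 factors known at respiratory chain genes. The NRF1 motif spelled out above was found in 22 of the 83 promoters (26.5%) and in 10.6% of 11029 promoters of genes in the table. The GABP motif CCGGAAG was found in 26.5% and 18.9%, and the YY1 motif AAGATGGC in 13.3% and 4.87%. The genes with the NRF1 letters did not share a direction: they include Sdhaf4, Ndufa8, Ndufa5, Ndufs5 and Atp5me among those lower in RFP cells and Atp5if1 among those higher. Their median log2 ratio was -0.43, against -0.40 for the 61 genes without the letters. The medians with and without the letters were -0.47 and -0.26 for GABP, and -0.35 and -0.41 for YY1. For any of the 3 motifs they were -0.47 over 47 genes with and -0.14 over 36 genes without. These differences were not tested. In the Cycs window none of the 3 motifs was found.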

How the data were processed

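The 99 genes, the gene lists and the alternatives were chosen with earlier results of these data known. Per the submitters' processing notes, reads were trimmed with fastp 0.20.0, aligned to mm10 with STAR 2.7.3a and counted with featureCounts 2.0.0. StringTie 2.0, deepTools 3.3.1 and DESeq2 1.30.0 are also named there. The deposited expression signal of a cell is its gene read count divided by 1 factor per cell, and whole reads were recovered for 100% of values within 0.01 of a whole number. These reads were rescaled to CPM over the 13927 genes. The authors deposited, per 200-bp window, a methylated fraction and counts of methylated and unmethylated calls, and the counts were summed over each promoter with at least 5 calls. The fraction itself was not used, since it is also 0 where a window has no call.

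Named genes were those past 2-fold that passed the level and detection rule, the isoform families, the highest and lowest gene by CPM of each complex, the mt- genes, and list genes past 2-fold. Others are named by value alone, having been chosen after their values were seen. Markers of epiblast, trophectoderm, primitive endoderm, fibroblast and oocyte were summed per cell, and the lists of assembly factors, regulators and the tricarboxylic acid cycle were counted like the 99 genes. The ratio step was checked on simulated counts. Alternatives were 3 pseudocounts, means over cells, the authors' factors, totals without mt- reads, cells left out, a level filter, a 1.5-fold mark and other promoter windows. Promoter sequences came from RefSeq's GRCm38.p6 table, which matched 83 of the 99 genes. Amplicon reads, E7.5 embryos and cells sorted otherwise were not analysed here, nor were the deposited comparison columns. Some genes of the lists are not reported here by name. Python 3.11.15, numpy 2.4.6, scipy 1.17.1, pandas 2.3.3 and matplotlib 3.10.9 were used.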

Additional observations from a re-analysis of the deposited data

How the results depend on the processing

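No paired analysis was possible because no test between RFP and GFP cells exists here and a cell's number names only the cell. Medians of log2 ratios are given in the order of the 99 genes, then complexes I to V, then the 12 assembly factors. With a pseudocount of 10 CPM, 2 genes were at least 2-fold higher (11.4% of all genes), and the medians were -0.28 for the 99 genes, 0.44 for complex II, -0.51 for complex V and 0.092 for the factors. With mean CPM over cells they were -0.32, -0.39 (I), 0.41 (II), -0.41 (III), -0.21 (IV) and 0.022 (factors). With the mean of log2(CPM + 1) over cells, 2 were higher and 38 lower (8.53% and 18.9% of all genes), with medians of -0.79, -1.001 (I), 0.33 (II), -0.94 (III), -0.61 (IV), -1.02 (V) and -0.42 (factors), while the median of all genes was -0.06 against 0.08 in pooled reads. With the authors' factor per cell, 11 were higher and 14 lower (30.7% and 27.8% of all genes), with medians of -0.34, -0.42 (I), 0.29 (II), -0.24 (III), 0.016 (IV), -0.71 (V) and -0.14 (factors), and Cox5b (0.018) and Atp5me (0.81) turned round. In that scaling RFP6 has a total of 181 M against a median of 4.35 M. Without cells over 10% mt- reads, the medians were 0.45 (II), -0.20 (IV), -0.59 (V) and 0.16 (factors). Without cells whose markers go against their group they were -0.33, 0.52 (II), -0.40 (III), -0.21 (IV), -0.57 (V) and 0.16 (factors). Without each gene's highest cell per group they were -0.29, -0.35 (I), 0.53 (II), -0.29 (III), -0.20 (IV), -0.56 (V) and 0.11 (factors). Among the 95 genes that reached 10 CPM in either group, 4 were higher, and the medians were -0.35 for them and -0.37 for complex IV. At 1.5-fold, 13 were higher and 31 lower. The median share of Cox6b2 over cells was 8.32% in RFP cells and 1.67% in GFP cells. In a promoter window of 500 bases on either side, median methylation was 3.49% in Actin-RFP ESCs, 3.93% in Gjb2 35delG ESCs and 5.42% in MEF, and with at least 20 calls 12.1% in MEF. Of 108 values for the 12 named genes under 9 alternatives, 98 kept direction and the 2-fold mark, 8 fell under it (Cox6b2, Ndufaf6 and Atp5me) and 2 reversed. Cells of an unknown number of embryos, 1 library per cultured line and the overlap of origin with lineage limit every comparison.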
